A study of Macaca mulatta with 36 samples.

Results

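From 14132 genes with a usable probe set, 68 nuclear genes of the mitochondrial respiratory chain were taken. They were chosen by symbol: NDUFA, NDUFB, NDUFC, NDUFS and NDUFV genes for complex I, SDHA to SDHD genes for complex II, UQCR genes for complex III, COX4 to COX8 genes for complex IV, and ATP5 genes for complex V. Of 112 probe sets that carry exactly 1 such symbol, the one with the highest mean over all arrays stands for each gene. The set holds 32 genes of complex I, 7 of complex II, 6 of complex III, 8 of complex IV and 15 of complex V. By role, 57 encode subunits, 10 are assembly factors caught by the same symbols (NDUFAF1, NDUFAF2, NDUFAF3, NDUFAF5, NDUFAF6, NDUFAF7 and SDHAF1 to SDHAF4) and 1, ATP5IF1, is the inhibitor of the ATP synthase. ATP5G1 is listed by RefSeq as a former symbol of ATP5MC1, but the array annotation gives both symbols under different gene IDs, and the ID of the ATP5G1 probe set used here was not found in the RefSeq table. Whether the probe sets of ATP5G1 and ATP5MC1 measure 1 gene was not settled, so 1 gene may be counted more than once among the 68. COX4I1, COX6A1 and NDUFB8 are not analysed here, because their probe sets also carry other symbols. CYC1, a subunit of complex III, does not match these symbols. It is absent from the complex III counts and means and stands in the list of assembly factors and electron carriers. No gene of the mitochondrial genome was matched by symbol (0 of 26 names), so all members are nuclear.

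The respiratory chain sits in the inner mitochondrial membrane. Complexes I and II pass electrons from NADH and succinate to ubiquinone, complex III passes them to cytochrome c, and complex IV reduces oxygen, while complexes I, III and IV pump protons that drive ATP synthesis by complex V. Neurons rely on this chain for most of their ATP, and its complexes are built from nuclear and mitochondrially encoded subunits with the help of assembly factors.

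The arrays measured total RNA of the hippocampus of 18 male rhesus macaques, with 2 arrays per animal. The 9 animals with SIVE (encephalitis after infection with simian immunodeficiency virus) were 2 to 6 years old, and the 9 uninfected controls 3 to 8 years. SIVE animals 1 to 4 and controls 8 and 9 are labelled as given anti-CD8, an antibody against the CD8 molecule of cytotoxic T cells, and the other 12 animals as not given it. The series has no infected animals without encephalitis, so infection and encephalitis cannot be told apart. In such bulk tissue, fewer cells of a type and less RNA per cell cannot be told apart either. All values are log2 array signals averaged over the 2 arrays of an animal, tests are limma's moderated two-sided tests, and a gene is called where the Benjamini-Hochberg adjusted p over all 52707 probe sets tested is under 0.05.

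Most members were brighter than the median probe set, and their median spread was smaller than that of all genes. Each gene stands by its brightest probe set, which favours a high level. The share of all genes reaching the median probe set level was not determined. The mean signal of the members reached the median probe set level of 5.65 in 65 of 68 cases, SDHAF3, COX4I2 and ATP5PB being the dim ones. The median SD between animals of a group was 0.172 over the members and 0.204 over all 14132 genes. Between the 2 arrays of an animal it was 0.0745 against 0.125.

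A property of the RNA split the animals before any comparison. The 3′ minus 5′ signal is the mean difference between the 3′ and 5′ control probe sets of GAPDH, ACTB and EEF1A1, and it is larger where the 5′ part of transcripts was labelled less. It was 1.46 in Control 8, 1.19 in SIVE 2 and 0.948 in SIVE 3, and between 0.105 and 0.465 in the other 15 animals. The SIVE mean was 0.440 ± 0.374 (SD, n = 9) and the control mean 0.416 ± 0.399 (SD, n = 9), a difference of 0.024 (exact permutation p = 0.924, two-sided). All 3 high animals carry the anti-CD8 label. Results are therefore given with and without them where they change.

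The first question was whether respiratory chain transcripts differ between SIVE and control hippocampus. Few did. NDUFA4 was lower and COX5A higher in SIVE, 2 of 68 members (2.94%), beside 4.92% of all probe sets and 7.23% of the 14132 genes called in the same comparison. By direction, 3.63% of probe sets were higher and 1.3% lower, and of the 14132 genes 809 were higher and 213 lower. The member differences had a median of -0.033, beside -0.024 over all genes, with 42 members below 0 and 26 above. At an unadjusted p under 0.05 there were 10 of 68 members, beside 11199 of 52707 probe sets. The SIVE and control ranges overlapped in all 68 members, whereas 1.95% of all genes had ranges that did not overlap. The 95% interval of the difference lay within ±0.5 (1.41-fold) for 61 of 68 members, so a larger mean difference was outside the interval for these. The 7 wider intervals belonged to ATP5F1B, ATP5F1D, ATP5MJ, NDUFAF5, NDUFS7, UQCR11 and UQCRC2, and the widest, that of UQCRC2, ran from -0.89 to 0.69.

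**Figure D1:**
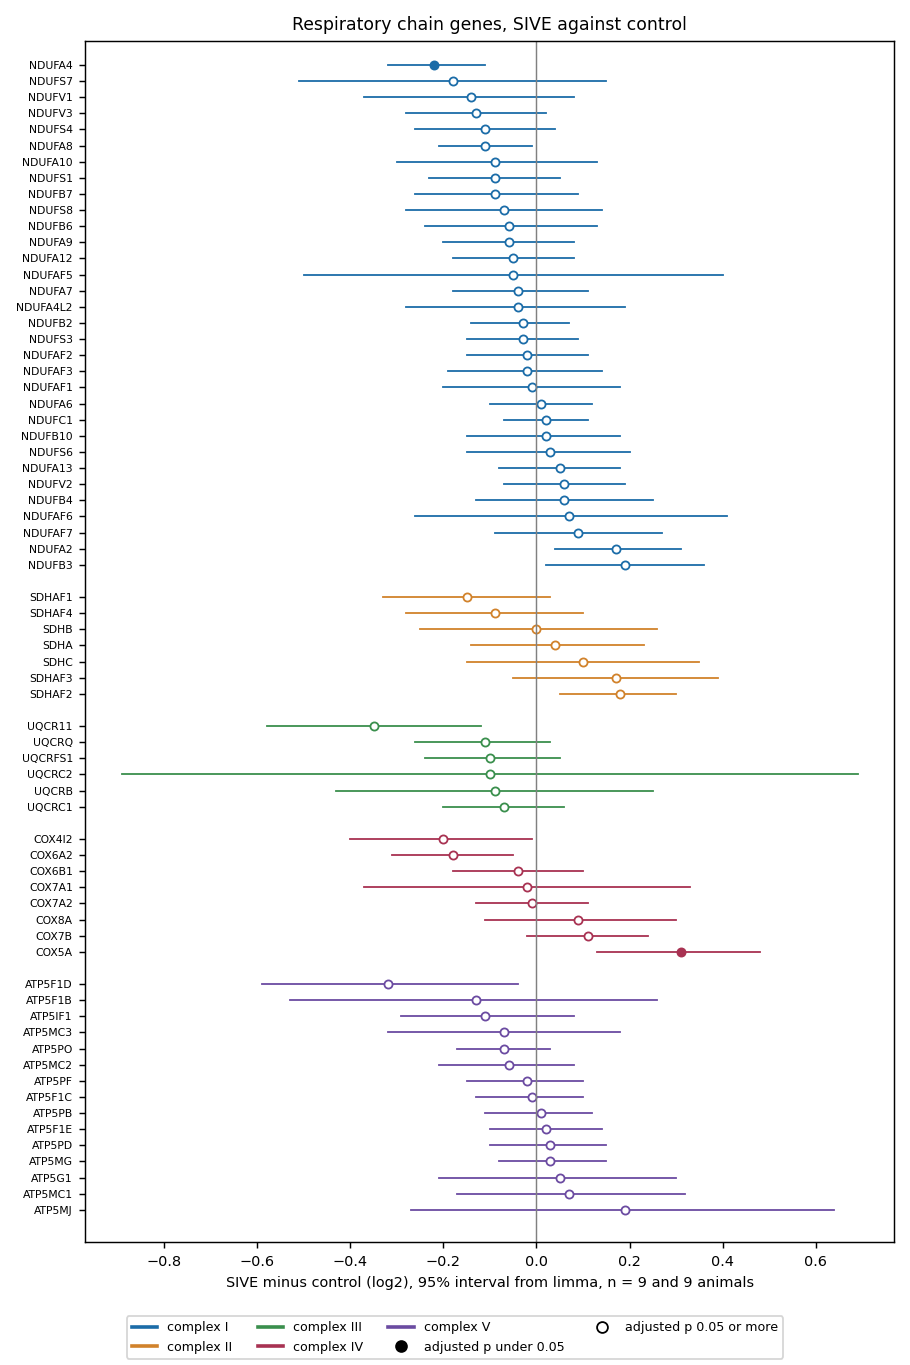
SIVE minus control difference (log2, horizontal axis) of the 68 respiratory chain genes, grouped by complex, with 95% intervals from limma over 9 and 9 animals. Filled points mark the 2 called genes, NDUFA4 and COX5A, and most intervals cross 0.

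Complexes are assigned by symbol in all counts and means here, so NDUFA4 and NDUFA4L2 stand under complex I. Of the 32 genes so assigned to complex I, 1 was called. NDUFA4, named as a complex I subunit and since assigned to complex IV, ranged from 11.43 to 11.74 in SIVE (median 11.54) and from 11.62 to 11.90 in controls (median 11.76). In 8 of 9 SIVE animals it lay below the lowest control, and SIVE 9, the exception, was at 11.74. It was lower by a difference of -0.22 ± 0.051 (SE, log2), 1.16-fold, with adjusted p = 0.0144, and it stayed called when any single animal was left out (adjusted p 0.00426 to 0.0338). Among the 12 animals without anti-CD8 the difference was -0.21 and was not called. There UQCR11 was the only member called (-0.44), 1 of 68, beside 2249 of 52707 probe sets and 926 of 14132 genes. The NDUFA4 call was also lost with the second array of each animal alone.

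NDUFB3, an accessory subunit of the membrane arm of complex I, ranged from 9.35 to 9.78 in SIVE (median 9.73) and from 9.08 to 9.66 in controls (median 9.52). In 7 SIVE animals it lay above the highest control, and the 2 lower ones were SIVE 2 and SIVE 3. The difference of 0.19 ± 0.082 (SE, log2) was not called (adjusted p = 0.195). NDUFA2, a small accessory subunit, was above the control median in all 9 SIVE animals, with a difference of 0.17 ± 0.063 (adjusted p = 0.123). NDUFS6 was also above it in all 9, with a difference of only 0.03 ± 0.085 (adjusted p = 0.893). NDUFA8 and NDUFS4 were below the control median in all 9, with differences of -0.11 ± 0.048 (adjusted p = 0.19) and -0.11 ± 0.070 (adjusted p = 0.368). NDUFS6, NDUFA8 and NDUFS4 are named after their values were seen. The share of all genes with all 9 SIVE animals on 1 side of the control median was not determined. The other complex I genes had differences between -0.18 (NDUFS7) and 0.09 (NDUFAF7). NDUFA4L2, a paralog of NDUFA4 known to be induced by hypoxia, differed by -0.04 ± 0.11 (adjusted p = 0.864).

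In complex II limma called 0 of 7 genes (1 at an unadjusted p under 0.05), and their differences ran from -0.15 to 0.18. SDHAF2, which attaches the flavin cofactor to SDHA, had the larger one, 0.18 ± 0.058 (SE, adjusted p = 0.0939), and only 1 SIVE animal lay below the control median. SDHAF1, which helps to insert iron-sulfur clusters into SDHB, differed by -0.15 ± 0.086 (adjusted p = 0.319). The subunits SDHA, SDHB and SDHC differed by 0.04 ± 0.090, 0.00 ± 0.12 and 0.10 ± 0.12.

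At their brightest probe sets all 6 complex III genes had negative differences, from -0.35 to -0.07, while 44.4% of all genes lay above 0. Of these 6 limma called 0 (1 at an unadjusted p under 0.05). UQCR11, a small subunit, ranged from 10.54 to 11.41 in SIVE (median 10.93) and from 11.14 to 11.60 in controls (median 11.32). In 5 SIVE animals it lay below the lowest control, and SIVE 1, the highest, lay inside the control range. Its difference of -0.35 ± 0.11 (SE, log2), 1.28-fold, was the largest of any member and had adjusted p = 0.0758. A second, dimmer UQCR11 probe set had a difference of -0.23 ± 0.079 (adjusted p = 0.105). The dimmer UQCRC1 probe sets differed by -0.11 and 0.46, the latter called (adjusted p = 0.0296). Those of UQCRB differed by 0.06, -0.15 and 0.05, none called. UQCRQ, another small subunit, differed by -0.11 ± 0.070 (adjusted p = 0.356).

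In complex IV, 1 of 8 genes was called. COX5A, a subunit on the matrix side of the enzyme, ranged from 10.79 to 11.36 in SIVE (median 11.08) and from 10.39 to 10.94 in controls (median 10.85). In 6 SIVE animals it lay at 10.98 or above, over the highest control. The rise of 0.31 ± 0.085 (SE, log2), 1.24-fold, had adjusted p = 0.0415. This call was narrow: it was lost without any 1 of SIVE 3 to SIVE 9 or of controls 3, 7, 8 and 9 (adjusted p 0.0223 to 0.0822 over all 18 omissions). Of the other 2 COX5A probe sets, 1 had the opposite sign, at -0.13 ± 0.061 (adjusted p = 0.242), and the other the same sign with a wider error, at 0.23 ± 0.19 (adjusted p = 0.504). Neither was called, nor was the mean over the 3, 0.14. With the 3′ minus 5′ signal as a covariate the third probe set was at 0.26 (adjusted p = 0.0559).

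Complex IV also has subunits with isoforms named for other tissues. COX6A2, the muscle form of subunit VIa, ranged from 5.94 to 6.37 in SIVE (median 6.13) and from 6.15 to 6.54 in controls (median 6.30). In 5 SIVE animals it lay below the lowest control, a difference of -0.18 ± 0.063 (SE, adjusted p = 0.107). COX4I2, an isoform of subunit IV known from lung, differed by -0.20 ± 0.092 (adjusted p = 0.215) at a signal under the median probe set level. The muscle form COX7A1 and the widely expressed form COX7A2 differed by -0.02 ± 0.17 and -0.01 ± 0.058.

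In complex V limma called 0 of 15 genes (1 at an unadjusted p under 0.05). ATP5F1D, the delta subunit of the rotor, ranged from 9.96 to 11.23 in SIVE (median 10.96) and from 10.88 to 11.50 in controls (median 11.07). Its difference of -0.32 ± 0.13 (SE, adjusted p = 0.178) included 1 SIVE animal far below the rest. ATP5PO, a subunit of the stalk, differed by -0.07 ± 0.049 (adjusted p = 0.43). ATP5F1B, the catalytic beta subunit, was below the control median in all 9 SIVE animals, and Control 8 was lowest of all 18 animals. The ATP5F1B difference was -0.13 ± 0.19 (adjusted p = 0.722), and it ran from -0.28 (without Control 8) to -0.04 (without SIVE 2) when single animals were left out, never called. The inhibitor ATP5IF1 differed by -0.11 ± 0.089 (adjusted p = 0.499).

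With the 3′ minus 5′ signal as a covariate, 5 of 68 members were called, beside 9.15% of all probe sets and 12.7% of genes. Of these members 2 were higher (5.45% of probe sets, 1215 of 14132 genes) and 3 lower (3.71% of probe sets, 584 genes). NDUFA4 and COX5A kept their differences (-0.22, adjusted p = 0.0103, and 0.31, adjusted p = 0.0294). Added were UQCR11 at -0.36 ± 0.10 (SE, adjusted p = 0.0264), COX6A2 at -0.19 ± 0.050 (adjusted p = 0.0244) and NDUFB3 at 0.20 ± 0.055 (adjusted p = 0.0322). The same 5 genes were called when SIVE 2, SIVE 3 and Control 8 were left out and no covariate was used. In that fit 7.23% of all probe sets and 1452 of 14132 genes were called. In the adjusted fit NDUFA4 and COX6A2 stayed called without any 1 animal, UQCR11 was lost only without SIVE 5 (-0.31), and COX5A and NDUFB3 stayed in 13 and 11 of 18 omissions. COX5A was lost without SIVE 3, SIVE 5 or controls 3, 8 or 9, and NDUFB3 without SIVE 3, 4, 8 or 9 or controls 3, 8 or 9. UQCR11 was also lost in that fit when each array was centred on its median (-0.33), and NDUFB3 under quantile normalization (0.17). With the first array of each animal alone COX5A, NDUFB3 and UQCR11 were lost, and with the second array alone COX6A2 and NDUFA4. In the 12 animals without anti-CD8, an alternative added after the data were seen, the adjusted fit called 3 members, all lower: UQCR11 (-0.43, adjusted p = 0.0123), ATP5F1D (-0.51, adjusted p = 0.0316) and NDUFS7 (-0.44, adjusted p = 0.0474). NDUFA4 (-0.19, adjusted p = 0.0901), COX5A (0.34, adjusted p = 0.0715), COX6A2 (-0.23, adjusted p = 0.0787) and NDUFB3 (0.21, adjusted p = 0.148) were not called there. That fit called 2374 of 52707 probe sets (753 lower) and 1000 of 14132 genes (344 lower). SIVE 9 was the lowest SIVE animal in ATP5F1D (9.96) and in NDUFS7 (9.58). A dimmer NDUFS7 probe set had the opposite sign in the adjusted fit of all 18 animals, at 0.46 (adjusted p = 0.00273).

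**Figure D2:**
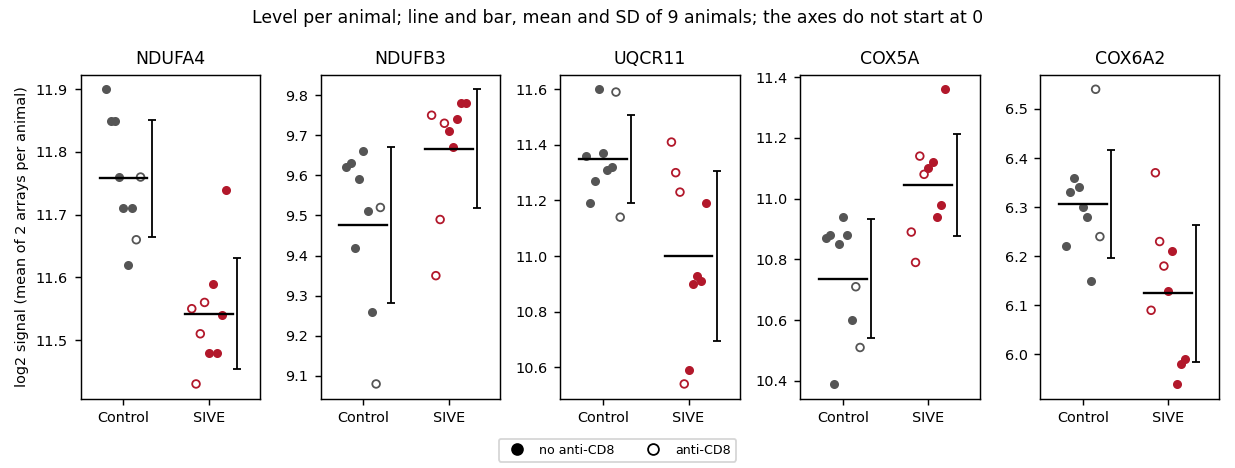
Log2 signal per animal of the 5 genes called in SIVE against control after adjustment for the 3′ minus 5′ signal, with the mean (line) and SD (bar) of each group of 9. Open points are animals labelled with anti-CD8; the SIVE means of NDUFA4, UQCR11 and COX6A2 lie below the control means and those of NDUFB3 and COX5A above, and the group ranges overlap in each panel.

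Among 89 measured genes of 5 other lists of energy metabolism, 3 passed the threshold in SIVE against control (3.37%), beside 7.23% of all genes. Of 34 measured assembly factors and electron carriers outside the 68 (48 on the list), COX10, which makes the heme A precursor for complex IV, rose by 0.49 ± 0.080 (SE, adjusted p = 4.78e-04), from a control range of 7.67 to 8.15 to a SIVE range of 8.02 to 8.63. Of 17 glycolytic genes (21 listed), HK2, a hexokinase that binds the mitochondrial outer membrane, rose by 1.03 ± 0.16 (adjusted p = 3.84e-04). Of 10 genes of superoxide defence and uncoupling (16 listed), SOD2, the matrix superoxide dismutase, rose by 2.86 ± 0.22 (adjusted p = 3.39e-08). None of 12 measured regulators of mitochondrial biogenesis (18 listed) and none of 16 genes of pyruvate dehydrogenase and the citric acid cycle (23 listed) was called by limma (1 and 4 at an unadjusted p under 0.05). The medians of these 5 lists lay between -0.09 and 0.03.

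Cell type markers moved in the same comparison, in which 7.23% of all 14132 genes were called, 809 higher and 213 lower. Median differences were 0.45 for microglia and macrophage markers, 0.32 for endothelial and pericyte, -0.04 for astrocyte, -0.13 for neuron and -0.32 for oligodendrocyte markers. Of 11 microglia and macrophage markers 4 rose (AIF1, CD14, PTPRC and LYZ) and none fell, and their summed linear signal was 3839 to 6114 in SIVE and 3422 to 4389 in controls. Of 8 neuron markers 2 fell (TUBB3 and SV2A), with sums of 11323 to 15081 in SIVE and 12159 to 17382 in controls. GFAP rose and SLC1A2 fell among 6 astrocyte markers, with sums of 16195 to 20316 in SIVE and 14968 to 20232 in controls. MBP and UGT8 fell among 3 oligodendrocyte markers (10881 to 14560 against 12166 to 14719). Of 6 endothelial and pericyte markers 3 rose (PECAM1, VWF and CDH5), with sums of 1042 to 2276 in SIVE and 847 to 1789 in controls. Of 7 lymphocyte markers 2 rose (GZMB and JCHAIN), with sums of 1374 to 1931 in SIVE and 1228 to 1766 in controls. The median lymphocyte difference was -0.1, so most of that list lay below 0. No array signal is at 0, and 1 endothelial and 2 lymphocyte markers had a mean under the median probe set level. The part of these cell types in the differences of NDUFA4, COX5A, UQCR11, COX6A2 and NDUFB3 was not tested.

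The second question was how the members vary with the 3′ minus 5′ signal. In a fit with group as a covariate, 31 of 68 members (45.6%) had a slope that was called, 18 negative and 13 positive. Beside them stand 30.7% of all probe sets and 36.6% of genes, many of them dimmer than the members. Among the 26354 probe sets at or above the median level, tested alone, 12830 were called, and 31 members. The share of members was not larger than that share of bright probe sets. Negative slopes made up 26.5% of members, beside 14.4% of probe sets and 2321 of 14132 genes. Positive slopes made up 19.1%, beside 16.2% of probe sets and 2845 of 14132 genes, so their share of members was slightly below that of genes. The median slope was 0.036 over the members and 0.078 over all genes (log2 per log2 unit of the signal). The complexes differed in their counts: 6 higher and 8 lower of 32 in complex I, 0 and 2 of 7 in complex II, 0 and 3 of 6 in complex III, 4 and 0 of 8 in complex IV, and 3 and 5 of 15 in complex V. Differences between complexes were not tested. Of the 10 assembly factors 3 had called slopes, all negative.

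**Figure D3:**
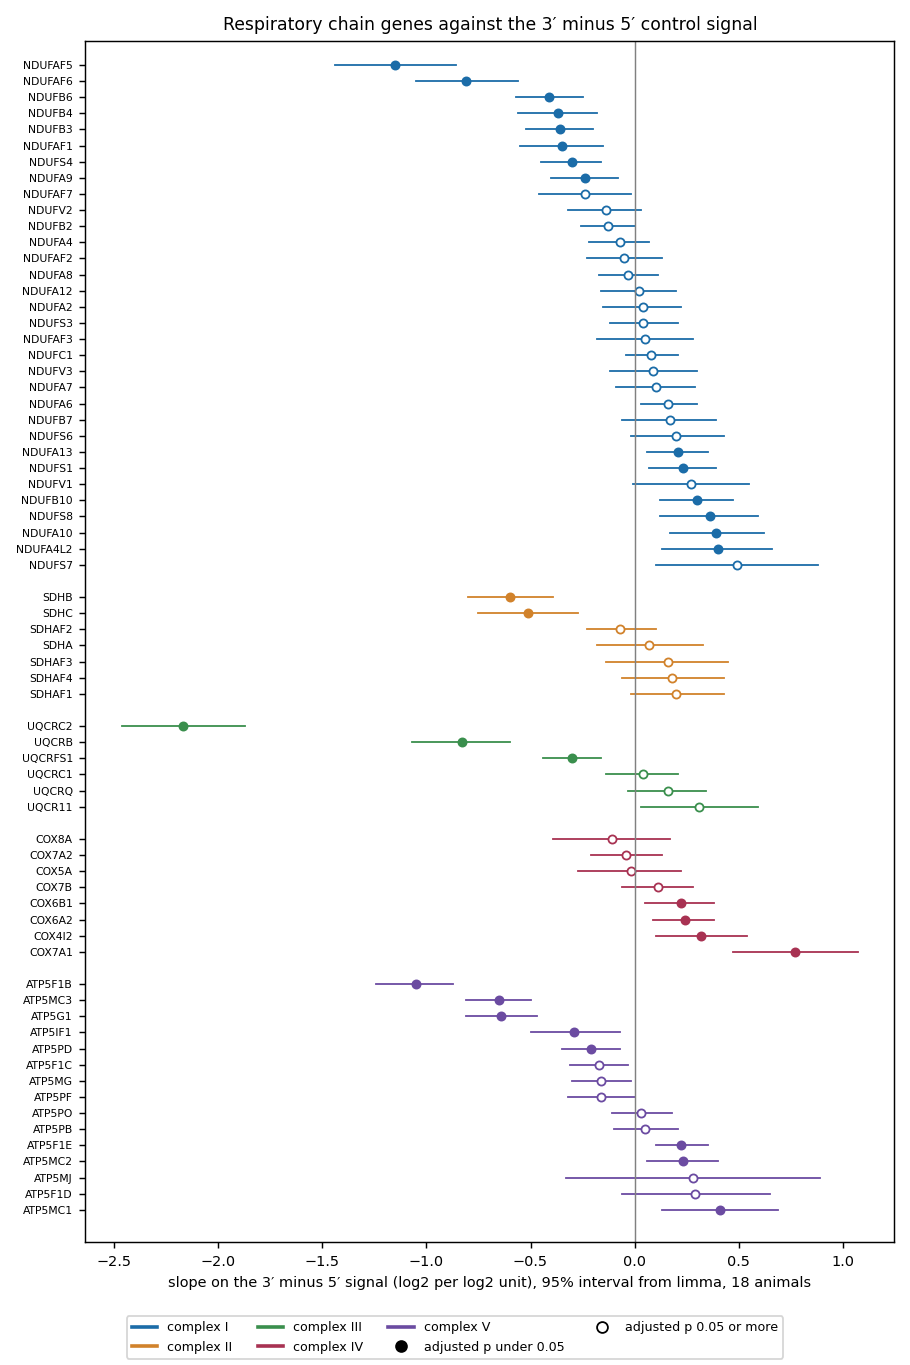
Slope of the 68 genes on the 3′ minus 5′ control signal (log2 per log2 unit, horizontal axis) by complex, with 95% intervals from limma over 18 animals and group in the fit. Filled points are the 31 called genes; UQCRC2 lies farthest to the left at -2.17 and COX7A1 farthest to the right at 0.77.

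UQCRC2, a core protein of complex III, had the steepest slope. It was at 7.76 in Control 8, 7.93 in SIVE 2 and 8.55 in SIVE 3, and between 9.82 and 10.54 in the other 15 animals. The 3 animals lay apart from the rest by more than the whole range of the rest, and both groups were represented. The slope was -2.17 ± 0.14 (SE, adjusted p = 1.84e-09). The animals with anti-CD8 and a low 3′ minus 5′ signal, Control 9, SIVE 1 and SIVE 4, were at 10.24, 10.54 and 9.94, within the range of the untreated animals or just above it.

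NDUFAF5, an assembly factor that hydroxylates NDUFS7 of complex I, was at 6.89 in Control 8, 6.93 in SIVE 2 and 7.38 in SIVE 3, and between 7.60 and 8.60 in the others. Its slope was -1.15 ± 0.14 (adjusted p = 3.32e-06). ATP5F1B was at 10.17, 10.47 and 10.72 in these 3 animals and between 11.13 and 11.61 in the others, with a slope of -1.05 ± 0.089 (adjusted p = 4.34e-08). Neither gene overlapped between the 3 animals and the other 15. UQCRB, a subunit near the ubiquinone site of complex III, was at 9.26, 9.44 and 9.51 against 10.06 to 10.56, with a slope of -0.83 ± 0.11 (adjusted p = 1.35e-05). These 4 genes had the most negative slopes, followed by NDUFAF6 (-0.81), the c-ring gene ATP5MC3 (-0.65), the probe set annotated as ATP5G1 (-0.64), SDHB (-0.60), SDHC (-0.51) and NDUFB6 (-0.41).

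The positive called slopes were shallower. COX7A1 was at 10.12 in Control 8, 10.03 in SIVE 2 and 10.25 in SIVE 3, and between 8.97 and 9.69 in the other animals, so the 3 again did not overlap the rest. Its slope was 0.77 ± 0.14 (SE, adjusted p = 4.04e-04). Among called slopes, ATP5MC1, a c-ring gene (0.41 ± 0.13, adjusted p = 0.0263), NDUFA4L2 (0.40 ± 0.13, adjusted p = 0.0234) and NDUFA10, an accessory subunit of complex I (0.39 ± 0.11, adjusted p = 0.00852), followed. The slope of NDUFS7 was steeper than theirs but not called (0.49 ± 0.19, adjusted p = 0.0539). The slopes of ATP5MC1 and ATP5G1, which may be 1 gene, were called in opposite directions. ATP5MC1 and NDUFA4L2 were lost without Control 8 or SIVE 3, and NDUFA10 without Control 8.

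**Figure D4:**
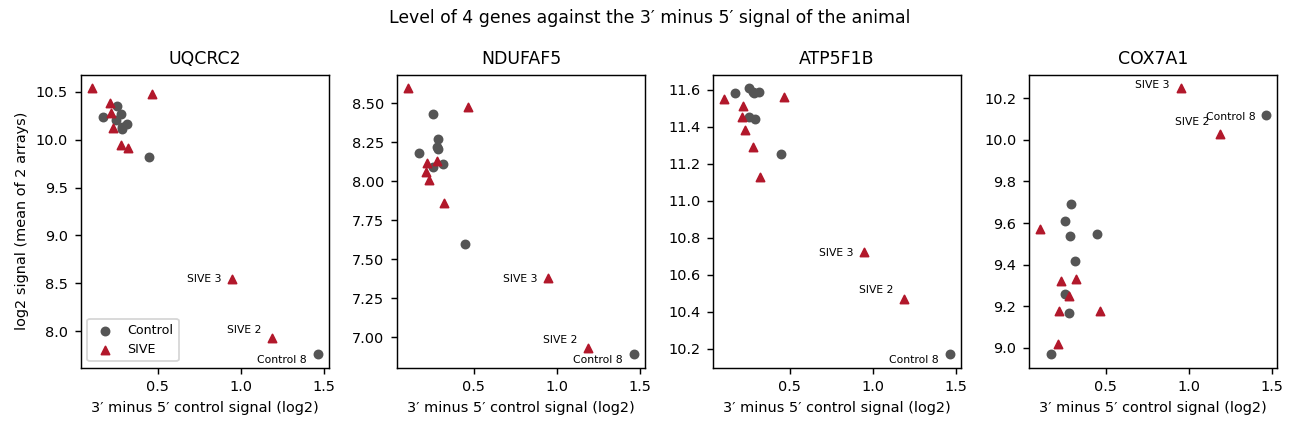
Log2 signal of UQCRC2, NDUFAF5, ATP5F1B and COX7A1 in each of 18 animals (vertical axes) against the 3′ minus 5′ control signal (log2, horizontal axis). Control 8, SIVE 2 and SIVE 3 lie at 0.948 and above on the horizontal axis and, in each panel, outside the range of the other 15 animals.

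In all, the 3 animals lay below the other 15 in 10 members (14.7%, beside 9.68% of genes): UQCRC2, UQCRB, ATP5F1B, ATP5G1, ATP5MC3, NDUFA9, NDUFAF5, NDUFAF6, NDUFB6 and SDHB. They lay above the others in 5 (7.35%, beside 8.51%): COX7A1, ATP5F1E, NDUFA13, NDUFS7 and NDUFS8. As a mean over the genes of a complex, taken as deviations from each gene's control mean, complex III stood at -0.485 in Control 8, -0.518 in SIVE 2 and -0.362 in SIVE 3, against -0.189 to 0.188 in the other 15. Most of this came from UQCRC2: over the other 5 genes of complex III the 3 animals stood at -0.156, -0.228 and -0.166, inside the range of the other 15 (-0.235 to 0.134). Complex IV stood at 0.179, 0.128 and 0.161, against -0.124 to 0.094. COX7A1 weighed most in this mean in each of the 3 animals (10.12, 10.03 and 10.25, against a control mean of 9.48). With COX7A1 left out, SIVE 2 and SIVE 3 fell inside the range of the other 15, and Control 8 lay just above it. Over all 68 members, Control 8 and SIVE 3 were inside the range of the others (-0.074 to 0.092) and SIVE 2 was below it, at -0.122.

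Without these 3 animals, 0 of 68 slopes were called by limma, and 0.0% of all probe sets were called. At an unadjusted p under 0.05 there were 11 members, beside 5515 of 52707 probe sets. The slopes therefore rest on SIVE 2, SIVE 3 and Control 8. Of the 31 called slopes, 16 had the opposite sign without them, UQCRB (0.42), ATP5G1 (0.13) and NDUFA10 (-0.64) among them, and none was called there. The signal of the remaining 15 animals spans only 0.105 to 0.465. The signs of these slopes are therefore loosely determined and are not read as reversals. In the 12 animals without anti-CD8, which hold none of the 3, limma called 0 members, and 18 of the 31 had the opposite sign. There 10 members had an unadjusted p under 0.05, beside 3181 of 52707 probe sets. With the anti-CD8 label in the fit 15 members were called, and with GAPDH alone as the measure 20.

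Each group was also fitted alone, a choice made after the data were seen, so that the slopes share no animal. The 9 SIVE animals gave 12 called members (1 positive and 11 negative, beside 13.5% of all probe sets, 4.22% positive and 9.27% negative). The 9 controls, where Control 8 is the only high animal, gave 13 (3 positive and 10 negative, beside 16.6%, 8.28% positive and 8.34% negative). Of the 14132 genes, 1966 were called in SIVE animals (636 positive, 1330 negative) and 2966 in controls (1657 positive, 1309 negative). In controls the share of members called was below that of genes. Called in both were UQCRC2 (-2.33 in SIVE and -2.02 in controls), NDUFAF5 (-1.21 and -1.10), ATP5F1B (-0.95 and -1.14), UQCRB (-0.80 and -0.86), COX7A1 (0.92 and 0.65), ATP5G1, ATP5MC3, NDUFAF6 and SDHB, 9 genes. Across the 68 genes, which are not independent replicates, the slopes of the groups correlated with r = 0.95 (Spearman's rho 0.92) and r = 0.92 without the 2 farthest genes.

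**Figure D5:**
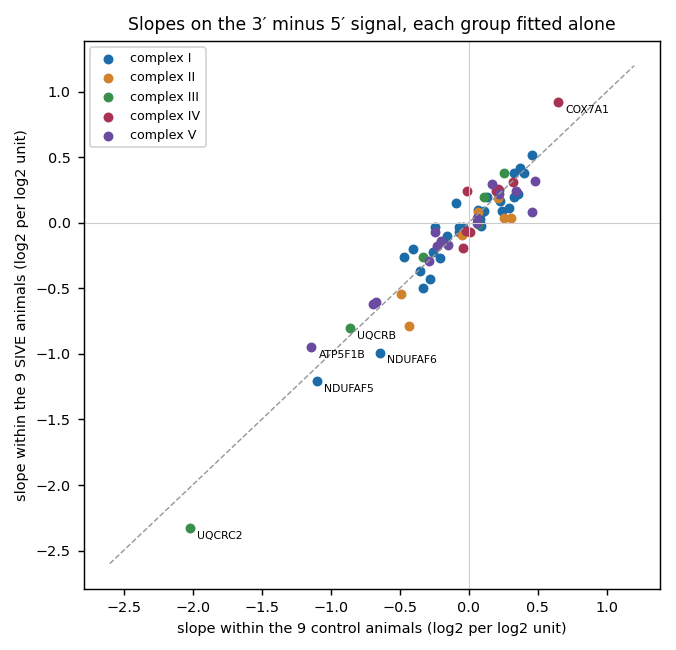
Slope on the 3′ minus 5′ signal fitted in the 9 SIVE animals alone (vertical axis) against that in the 9 control animals alone (horizontal axis), both log2 per log2 unit, 1 point per gene, coloured by complex. The dashed line marks equal slopes; UQCRC2 lies at -2.02 in controls and -2.33 in SIVE, and COX7A1 at 0.65 and 0.92.

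Slopes of related genes and markers are read against the 36.6% of all genes called. DLD, a dehydrogenase subunit shared by the pyruvate and oxoglutarate complexes, had a slope of -3.24 ± 0.17 (adjusted p = 1.31e-10), HIGD1A, a complex IV assembly factor, -2.64 ± 0.25 (adjusted p = 2.16e-07), PRDX3, a mitochondrial peroxidase, -2.46 ± 0.14 (adjusted p = 2.51e-10) and SUCLA2 of the citric acid cycle -1.79 ± 0.13 (adjusted p = 4.40e-09); these 4 were chosen after their values were seen. Of the 16 citric acid cycle and pyruvate dehydrogenase genes 8 had called negative slopes and 1 positive, of the 10 superoxide defence genes 7 and 1, of the 34 assembly factors and carriers 9 and 8, of the 12 biogenesis regulators 3 and 4, and of the 17 glycolytic genes 4 and 5. No list was tested against other genes. Among cell type markers, 3 of 8 neuron markers had negative and 1 a positive slope, 1 and 2 of 6 astrocyte markers, 3 and 4 of 11 microglia and macrophage markers, 0 and 3 of 6 endothelial markers, 1 and 0 of 7 lymphocyte markers, and none of 3 oligodendrocyte markers (0 also at an unadjusted p under 0.05). ENO2 counts among both the neuron and the glycolytic genes. The summed neuron markers were 12159 in Control 8, 12438 in SIVE 2 and 11323 in SIVE 3, against 12874 to 17382 in the other 15, and the summed astrocyte markers 20232, 20316 and 19325 against 14968 to 19427. The part of cell makeup in the slopes was not tested.

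Different probe sets of 1 gene often differed in their slopes. Of the 32 members with several probe sets, 14 had slopes of opposite sign between them, and 15 had SIVE differences of opposite sign. COX7A2 had a slope of -0.04 ± 0.080 at its brightest probe set and -2.81 ± 0.27 (adjusted p = 2.29e-07) at the other. NDUFS6 went from 0.20 ± 0.11 to -1.87 ± 0.18 (adjusted p = 3.00e-07), COX5A from -0.02 ± 0.12 to -1.04 ± 0.11 (adjusted p = 1.10e-06), and SDHAF2 from -0.07 ± 0.080 to -0.93 ± 0.091 (adjusted p = 3.01e-07).

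In 2 genes the probe sets were called in opposite directions: ATP5F1E, the epsilon subunit of complex V, at 0.22 and -0.42, and NDUFS1, the large iron-sulfur subunit of complex I, at 0.23 and -0.91. ATP5F1B had a slope of -0.22 ± 0.15 (adjusted p = 0.287) at its second probe set. NDUFAF5 had -0.32 ± 0.12 (adjusted p = 0.0471) and 0.09 ± 0.37 (adjusted p = 0.889) at its other 2. In SIVE against control, 2 of the 44 dimmer probe sets were called, and both were opposite in sign to the brightest: NDUFS7, an iron-sulfur subunit, at 0.46 ± 0.092 (adjusted p = 0.0038) against -0.18 ± 0.16, and UQCRC1, the other core protein of complex III, at 0.46 ± 0.12 (adjusted p = 0.0296) against -0.07 ± 0.062. These probe sets were chosen after their values were seen.

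The anti-CD8 label was the last comparison. Within SIVE the treated animals were all 6 years old and the untreated ones 2 to 5. The label and age cannot be told apart there. Between the 4 treated and 5 untreated SIVE animals limma called 0 of 68 members, beside 0.0019% of all probe sets. At an unadjusted p under 0.05 there were 11 members, beside 8079 of 52707 probe sets. SIVE 2 and SIVE 3 are among the treated animals. Without the 3 animals of high 3′ minus 5′ signal 1 member had an unadjusted p under 0.05, beside 1869 of 52707 probe sets. The SIVE effect with anti-CD8 minus that without it was called in 0 of 68 members (1 at an unadjusted p under 0.05, NDUFAF3), beside 0.0% of all probe sets (1481 at an unadjusted p under 0.05). Only 2 controls carry the label, which limits this test.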

How the data were processed

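The deposited table holds log2 values, a scale read from their range, made by the authors with RMA per the submitters' processing notes; neither a version nor the probe definitions are stated in the sources used here. Array medians lay between 5.59 and 5.75. Of 52865 probe sets, 158 control and reporter sets were left out and 52707 tested. Symbols came from the platform annotation (24969 probe sets with 1 symbol, 361 with several, 27535 with none); 67 of 68 member gene IDs were found in RefSeq.

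The 2 arrays of an animal were averaged and counted as 1 replicate, so p-values measure the spread between animals. No source used here says if the 2 arrays read 1 RNA or separate tissue. Their correlation was 0.9765 in Control 9 and 0.9918 to 0.9973 in the others. The number of animals, 9 per group, limits the precision. limma 3.58.1 in R 4.3.3 (lmFit, eBayes) was fitted on the whole table with group, with group and the 3′ minus 5′ signal, and with 1 mean per group and anti-CD8 label. It was tested on simulated data. Python 3.11.15 and scipy 1.17.1 ran the permutation test.

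Named are members called in SIVE against control, plain or adjusted, the 2 smallest p per complex, the 4 steepest called slopes each way, isoform pairs, and called genes of the pathway lists; others are marked. Members and lists were chosen with earlier results of these data known. No sequences were used.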

Additional observations from a re-analysis of the deposited data

Results flagged for a closer look

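In 7 of 42 groups of 9 animals tested, over the named members and the 3′ minus 5′ signal, 1 animal stood apart from the others by Dixon's gap test at 95%; chance alone gives about 1 group in 20. That rate does not apply to UQCRC2, UQCRB, ATP5F1B and NDUFA4L2, which were named for slopes that rest on Control 8, SIVE 2 and SIVE 3. Control 8 did so in 4 of them: its 3′ minus 5′ signal was 1.46 (next control 0.444), UQCRC2 was at 7.76 (next 9.82), UQCRB at 9.26 (next 10.11) and ATP5F1B at 10.17 (next 11.25). SIVE 9 was low in ATP5F1D, at 9.96 (next SIVE animal 10.61), and high in NDUFA4, at 11.74 (next 11.59). SIVE 3 was high in NDUFA4L2, at 6.75 (next 6.16).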

How the results depend on the processing

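SIVE against control called 2 members. It called 1 with the second arrays alone, with age as a covariate and in animals without anti-CD8, 4 with all 36 arrays (animal as a random block) and with anti-CD8 as a covariate, 5 without SIVE 2, SIVE 3 and Control 8, and 1 to 4 without single animals. Its count over all probe sets was 2595, against 5294 with anti-CD8 as a covariate. The slopes called 31 members. They called 0 without the 3 animals or without anti-CD8 animals, 15 with anti-CD8 as a covariate, 20 with GAPDH alone, 12 in SIVE and 13 in control animals alone (both added after seeing the data), and 13 (without Control 8) to 36 without single animals. Their probe set count of 16164 became 0 without the 3 animals, 9662 with anti-CD8 as a covariate, 7108 and 8760 in each group alone and 8146 without Control 8. The adjusted SIVE comparison called 5, 3 with the first arrays alone, 3 in animals without anti-CD8 (2374 probe sets, against 4824; added after seeing the data), 8 with all 36 arrays, and 3 to 7 without single animals. Anti-CD8 within SIVE called 0, and 3 with all 36 arrays (1 and 1930 probe sets). The causes were not tested.

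Of the 31 called slopes, 16 turned in sign without the 3 animals and 18 in animals without anti-CD8, all uncalled there. In both settings the 3′ minus 5′ signal stays within 0.105 to 0.465, so these signs are loosely determined. Among the members chosen by the naming rule these were ATP5MC1 (-0.83 and -0.91), COX6A2 (-0.08 and -0.13), NDUFA10 (-0.64 and -0.79), NDUFA4L2 (-0.47 and -0.50), NDUFB3 (0.14 and 0.26) and UQCRB (0.42 and 0.48). A change of sign between values that were both uncalled is not counted. Quantile normalization, median centring and the filter on dim probe sets left each of these 3 counts within 1.5 times.

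The replicate numbers do not pair the animals: deviations of same-numbered animals correlated at -0.488 to 0.0888, and 0 of 9 correlated best with their own number. With the number as a replicate block SIVE against control called 0 members, the adjusted comparison 0 and the slopes 10 (1368, 2344 and 7542 probe sets, against 2595, 4824 and 16164). Signal over background limits the 3 members under the median probe set level, SDHAF3, COX4I2 and ATP5PB.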
